A study of Mus musculus with 6 samples.

Results

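The accessible chromatin around 9 genes of the trophoblast lineage was described in mouse pluripotent stem cells. The genes were Tead4, Cdx2, Gata3, Eomes, Elf5, Tfap2c, Gata2, Hand1 and Ascl2, chosen by name as 9 of 22367 protein-coding genes of the GENCODE M1 annotation. Tfap2c is listed there under its older symbol Tcfap2c, and all 9 symbols were found. A peak was counted for a gene when it overlapped the stretch from 20 kb before the gene to 20 kb after it, called its window. Merging overlapping peaks of the 3 deposited lists gave 65518 regions, and 50 of them lay in the 9 windows.

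Accessibility was read by ATAC-seq, an assay that lets the Tn5 transposase insert adapters into accessible DNA, in 3 cell states grown from J1 embryonic stem cells (ESCs) of mouse strain 129SV. ESCs were kept in serum with LIF and the 2i inhibitors CHIR99021 and PD0325901. D-EPSCs were expanded potential stem cells made from those ESCs in N2B27 medium with serum replacement, LIF, CHIR99021, dimethindene maleate and minocycline. L-EPSCs were made from them in DMEM/F12 with serum replacement, LIF, CHIR99021, PD0325901, A-419259, XAV939, JNK inhibitor VIII and SB203580. All 3 states descend from 1 parental line and all received LIF and CHIR99021. Each state had 2 technical replicates behind a single list of peak positions, so these lists allow no replicate value or replicate test for a peak, and the read depth behind them is unknown here. There were 28965 peaks for ESCs, 50225 for D-EPSCs and 46601 for L-EPSCs, the EPSC lists being 1.73 and 1.61 times as long as that of ESCs. Of 3 genes that mark pluripotent cells, Pou5f1 and Sox2 had a peak within 1 kb of a start in all 3 lists, and Nanog had one in the D-EPSC and L-EPSC lists and not in the ESC list, but such peaks are common over all genes and do not test cell identity.

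Trophoblast is the outer lineage of the early embryo and forms much of the placenta. Tead4 acts at the top of its gene network, where it pairs with the Hippo pathway coactivator Yap1 to switch on Cdx2 and Gata3 in outer cells. Eomes, Elf5 and Tfap2c then hold the stem cell state of the trophoblast together with Cdx2. Gata2 and Hand1 act in trophoblast giant cells, and Ascl2 acts in the precursors of the spongiotrophoblast. Embryonic stem cells normally make little trophoblast, and a wider potential that includes extraembryonic lineages is the property for which EPSCs were named.

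To show what these regions look like, the central 300 bases of a region are printed for each class of region, a class being the set of lists with a peak there. Each is the widest region of its class that has its middle more than 1 kb from any start and no annotated exon in those bases. That last condition passed over the region of 1049 bp in Ascl2 and the L-EPSC peak of 409 bp upstream of Cdx2. Coordinates are on mm9 and the strand is the plus strand. Capitals mark matches, on either strand, to the short consensus sequences described with the motifs below.
Cdx2 intron, all 3 lists, chr5:148116272-148116571: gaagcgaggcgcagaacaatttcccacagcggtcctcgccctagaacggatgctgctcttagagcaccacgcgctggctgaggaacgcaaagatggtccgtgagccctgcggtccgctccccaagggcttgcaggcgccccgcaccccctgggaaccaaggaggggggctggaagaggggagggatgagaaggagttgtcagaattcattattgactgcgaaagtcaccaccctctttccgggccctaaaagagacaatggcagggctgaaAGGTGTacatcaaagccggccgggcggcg
Eomes downstream, both EPSC lists only, chr9:118405837-118406136: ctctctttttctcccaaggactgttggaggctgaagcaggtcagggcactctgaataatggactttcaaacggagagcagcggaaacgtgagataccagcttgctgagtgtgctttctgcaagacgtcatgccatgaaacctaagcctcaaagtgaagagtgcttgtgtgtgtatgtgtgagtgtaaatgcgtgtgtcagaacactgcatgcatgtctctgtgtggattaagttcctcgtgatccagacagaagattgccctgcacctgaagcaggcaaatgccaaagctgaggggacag
Tfap2c upstream, D-EPSC only, chr2:172372968-172373267: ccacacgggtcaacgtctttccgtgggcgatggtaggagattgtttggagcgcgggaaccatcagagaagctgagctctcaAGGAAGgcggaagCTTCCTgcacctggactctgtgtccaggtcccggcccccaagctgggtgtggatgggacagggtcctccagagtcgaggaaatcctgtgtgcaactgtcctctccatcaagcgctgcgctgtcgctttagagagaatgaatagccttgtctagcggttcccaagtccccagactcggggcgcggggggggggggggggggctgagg
Gata3 upstream, L-EPSC only, chr2:9825636-9825935: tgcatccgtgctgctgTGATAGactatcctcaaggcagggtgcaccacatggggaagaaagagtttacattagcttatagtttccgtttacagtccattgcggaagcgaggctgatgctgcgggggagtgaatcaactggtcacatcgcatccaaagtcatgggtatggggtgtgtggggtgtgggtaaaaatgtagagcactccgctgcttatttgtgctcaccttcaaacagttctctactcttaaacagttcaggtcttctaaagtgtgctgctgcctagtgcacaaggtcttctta
Tead4 intron, ESC and D-EPSC only, chr6:128246655-128246954: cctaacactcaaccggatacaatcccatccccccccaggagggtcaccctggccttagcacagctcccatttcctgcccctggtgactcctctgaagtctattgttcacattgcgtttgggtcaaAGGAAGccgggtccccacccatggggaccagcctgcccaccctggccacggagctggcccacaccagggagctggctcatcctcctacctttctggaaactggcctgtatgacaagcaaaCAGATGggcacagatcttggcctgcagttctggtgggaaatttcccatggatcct
Tfap2c downstream, ESC and L-EPSC only, chr2:172393821-172394120: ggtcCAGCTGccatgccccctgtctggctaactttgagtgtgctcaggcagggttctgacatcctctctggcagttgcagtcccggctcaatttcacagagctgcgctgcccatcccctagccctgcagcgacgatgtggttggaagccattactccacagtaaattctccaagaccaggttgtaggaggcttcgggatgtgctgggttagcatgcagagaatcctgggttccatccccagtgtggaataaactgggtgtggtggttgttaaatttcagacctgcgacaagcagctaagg
No region of the 9 windows had a peak in ESCs only. The printed stretch of Cdx2 lies inside the ESC peak, is reached in part by the L-EPSC peak and ends before the D-EPSC peak begins. The L-EPSC peak covers the whole Eomes stretch and the D-EPSC peak only its last part, while in Tead4 the ESC peak covers the first part.

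Both EPSC lists held more peaks around these genes than the ESC list. The 9 windows contained 22 ESC peaks, 41 D-EPSC peaks and 39 L-EPSC peaks, so the EPSC counts were 1.86 and 1.77 times the ESC count. Those ratios lie close to the ratios of the whole lists, and per 1000 peaks of a list the windows held 0.760, 0.816 and 0.837 peaks. Peaks covered 9.16 kb of the windows in ESCs, 16.0 kb in D-EPSCs and 15.5 kb in L-EPSCs, or 1.66%, 2.89% and 2.82% of their length.

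Each of the 9 genes had more peaks in D-EPSCs than in ESCs and more in L-EPSCs than in ESCs. Among all coding genes 56.5% had more D-EPSC than ESC peaks and 52.5% had more L-EPSC than ESC peaks. A gene with no peak in any list cannot differ, and 16.0% of coding genes had none, while each member had at least 1. Of the 16234 coding genes with at least 2 regions, as each member had, 73.2% had more D-EPSC peaks, 68.6% more L-EPSC peaks and 58.5% more of both. Regions of EPSC peaks alone count towards that limit, so it is not independent of the difference. A window held a median of 5 regions for the members and 3 for all coding genes, and the median numbers of ESC, D-EPSC and L-EPSC peaks were 2, 4 and 4 for the members and 2, 3 and 2 for all coding genes. The count depended on which peaks were kept. When each list was cut to its widest 28965 peaks, the number in the shortest list, 2 members had more D-EPSC than ESC peaks and 6 had more L-EPSC than ESC peaks, and the D-EPSC to ESC ratio of peaks in the windows was 0.955. That setting removes narrow EPSC peaks and no ESC peak. With the widest 50% of each list, 6 members had more D-EPSC and 6 had more L-EPSC than ESC peaks. Shares over all coding genes were not computed for the cut lists, so these counts have no background beside them.

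**Figure D1:**
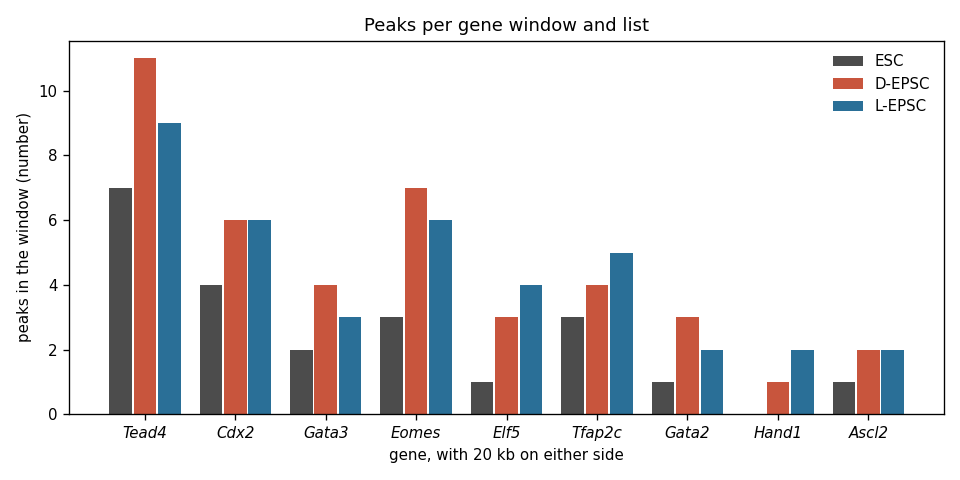
Number of peaks (vertical axis) in the window of each gene (horizontal axis), with 1 bar per list. The ESC bar is the shortest at each gene, from 0 at Hand1 to 7 at Tead4, and there is no error bar because each state has a single list.

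**Figure D2:**
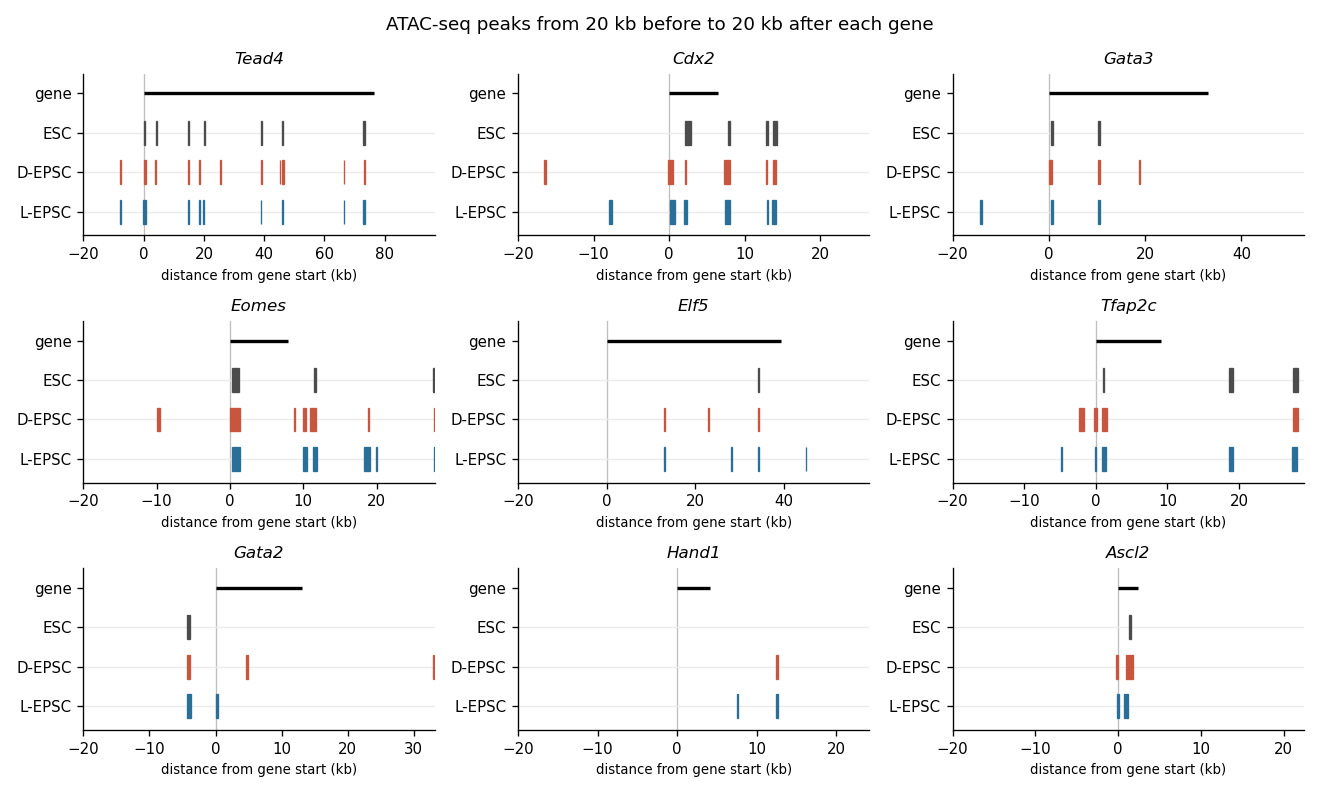
Peaks of the 3 lists along the window of each gene, by distance from the gene start in kb (horizontal axis, negative before the start), with the gene as a black line and each peak as a block in the row of its list. Blocks carry a thin outline, so the narrowest look slightly wider than they are. Hand1 has no ESC block, while Tead4 has ESC blocks from its start to its far end.

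Peaks in 1 or both EPSC lists without an ESC peak made up 28 of the 50 regions, and their mix was near that of other genes. Peaks of all 3 lists lay in 19 regions, or 38.0% (95% Wilson interval 25.9 to 51.8), against 35.9% of the 52000 regions in the windows of all coding genes. Both EPSC lists and not ESCs had a peak in 10 regions, or 20.0%, against 18.7%. D-EPSCs alone had 10 regions, or 20.0%, against 21.1%, and L-EPSCs alone had 8, or 16.0%, against 15.1%. ESCs shared 1 region with D-EPSCs only, which is 2.00% against 2.13%, and 2 regions with L-EPSCs only, which is 4.00% against 2.68%. ESCs alone had 0 regions, which allows a share of up to 7.13%, and 4.44% of regions in coding windows were of that kind. Every background share lies inside the interval of the members' share, and these intervals cover counting error only, with regions of 1 gene sharing a locus. With each list cut to its widest 28965 peaks, 2 regions had a peak in both EPSC lists only, 4 in D-EPSCs only and 6 in L-EPSCs only, while 2 were in ESCs only and 5 in ESCs and L-EPSCs only. The shares in the windows of all coding genes were not computed for the cut lists.

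**Figure D3:**
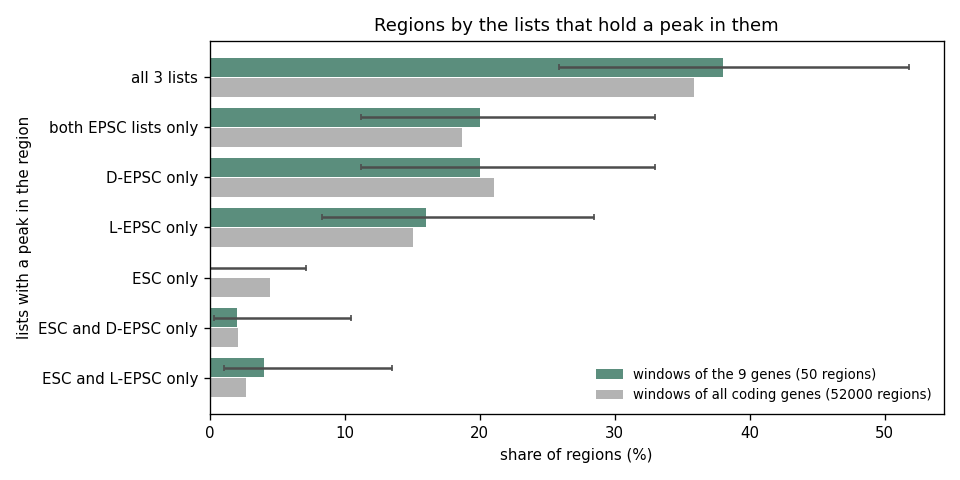
Share of regions in percent (horizontal axis) by the lists that have a peak in the region (vertical axis), for the 9 windows and for the windows of all coding genes. Whiskers on the upper bars are 95% Wilson intervals of the 50 regions, and the grey bar ends inside the whisker in each of the 7 classes.

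Starts were examined next, since a peak there can mark an accessible promoter. A start counted as having a peak when a peak overlapped the stretch from 1 kb before to 1 kb after the start of any annotated transcript. ESCs had such a peak at 5 of the 9 genes, D-EPSCs at 8 and L-EPSCs at 8, and the shares over all coding genes were 52.3%, 64.2% and 61.5%. The 5 genes of the ESC list were Tead4, Gata3, Eomes, Elf5 and Tfap2c, and they had a start peak in all 3 lists. Elf5 counted in ESCs only through an internal start, and its 5′ end was 34130 bp from the nearest ESC peak. No start of Gata3 lay inside a peak in any list. Cdx2, Gata2 and Ascl2 had a start peak in both EPSC lists and not in the ESC list. At Gata2 the peaks lay at different starts, 4.82 kb into the gene in D-EPSCs and near the 5′ end in L-EPSCs. Of all coding genes, 9.09% had a start peak in both EPSC lists but lacked it in ESCs, and 13.3% had one in at least 1 EPSC list and none in ESCs. Hand1 had no start peak in any list. These counts moved with the distance allowed and the peaks kept. Within 2.5 kb of a start there were 7 genes for ESCs, 8 for D-EPSCs and 8 for L-EPSCs, since the ESC peaks of Cdx2 and Ascl2 then counted. With each list cut to its widest 28965 peaks the counts were 5, 6 and 8. Shares over all coding genes were not computed at these settings, so a change at these genes cannot be told apart from a general one. The start base itself lay inside a peak at 3 genes in ESCs against 6 in D-EPSCs and 5 in L-EPSCs, a count added after the data were seen, and over all coding genes the shares were 43.5%, 58.4% and 55.0%. With only the 5′ end of the gene counted, a peak lay within 1 kb of it at 4 genes for ESCs, 6 for D-EPSCs and 7 for L-EPSCs. No share over all coding genes was computed for that count. The base at the 5′ end lay inside a peak at 1 gene for ESCs, 4 for D-EPSCs and 2 for L-EPSCs, a count outside the planned settings. Over all coding genes those shares were 37.5%, 52.5% and 49.0%.

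**Figure D4:**
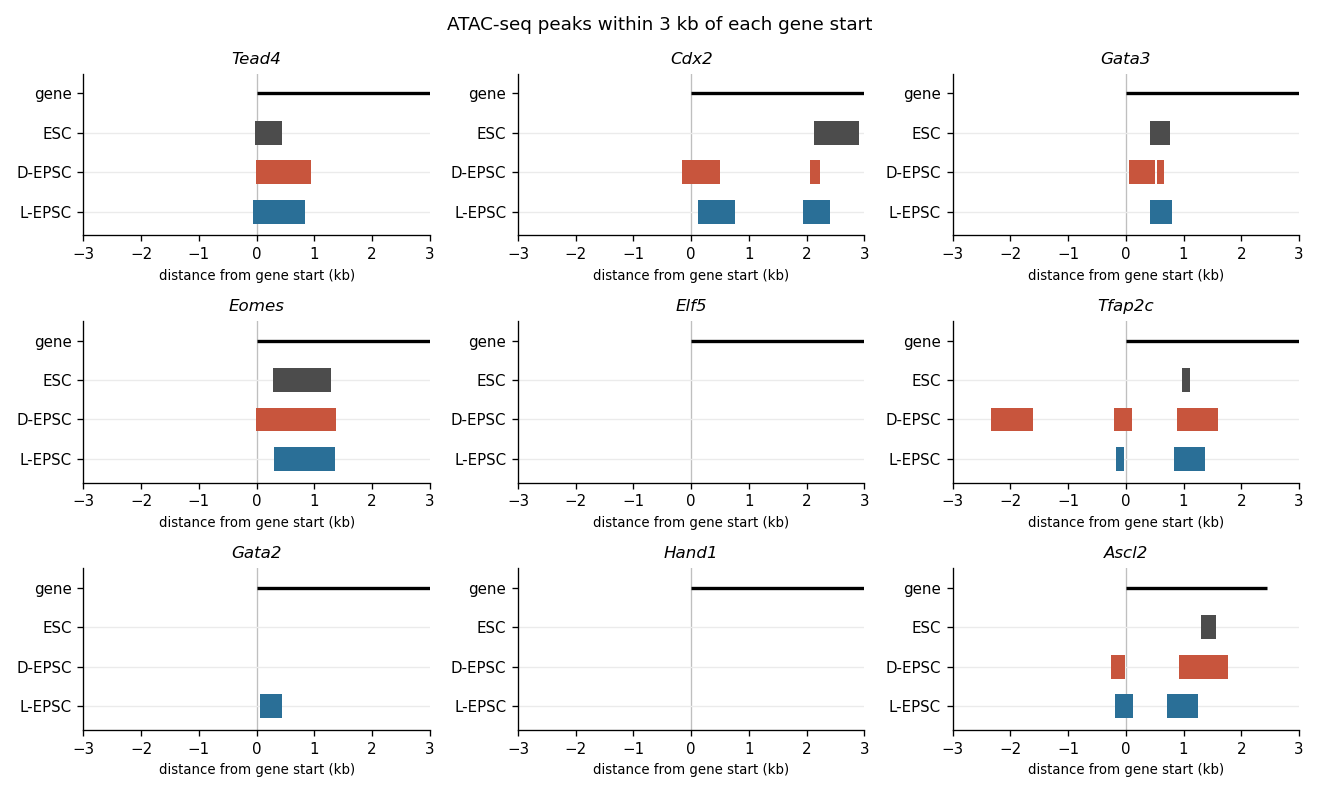
Peaks within 3 kb of the start of each gene (horizontal axis in kb, negative before the start), drawn to scale with 1 row per list and the gene as a black line. Cdx2 and Ascl2 have D-EPSC and L-EPSC blocks at the start and an ESC block only further into the gene, and the panels of Elf5 and Hand1 are empty because their nearest peaks lie outside the range.

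Of those 3 genes, Cdx2 and Ascl2 have a single annotated start and Gata2 has more than 1. The bases before the start that lie inside the start region are printed for them, a choice made after the values were seen. Sequences read towards the start in the direction of transcription, and end on the base before it.
Cdx2, minus strand, chr5:148118847-148119009: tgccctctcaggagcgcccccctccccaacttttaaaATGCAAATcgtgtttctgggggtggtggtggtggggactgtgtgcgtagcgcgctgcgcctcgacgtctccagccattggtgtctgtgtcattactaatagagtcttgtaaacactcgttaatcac
Ascl2, minus strand, chr7:150155170-150155420: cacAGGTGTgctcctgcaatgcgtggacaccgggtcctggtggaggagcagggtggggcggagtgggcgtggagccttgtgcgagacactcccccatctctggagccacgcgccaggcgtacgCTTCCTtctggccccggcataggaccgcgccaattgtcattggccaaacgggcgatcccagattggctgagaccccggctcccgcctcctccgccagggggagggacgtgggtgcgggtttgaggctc
Gata2, internal start, plus strand, chr6:88148555-88148657: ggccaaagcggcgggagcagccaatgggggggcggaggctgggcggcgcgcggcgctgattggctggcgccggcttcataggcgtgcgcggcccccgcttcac
The Cdx2 stretch lies inside the D-EPSC peak and outside the L-EPSC peak, which begins within the gene. It holds the letters ATGCAAAT, a match to the octamer consensus. The Ascl2 stretch is covered by the D-EPSC peak almost to its last base, and the L-EPSC peak covers the part nearer the start. The Gata2 stretch has a GC content of 76.7% and holds no match to the consensus sequences searched.

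Tead4 (chr6:128174306-128250841, minus strand), the TEAD factor that pairs with Yap1, had the most peaks of the 9 genes, with 7 in ESCs against 11 in D-EPSCs and 9 in L-EPSCs in a window of 116.5 kb. Its start was covered in all 3 lists by a region of 1002 bp, in which the ESC peak was 459 bp wide, the D-EPSC peak 965 bp and the L-EPSC peak 892 bp. These were the widest Tead4 peaks in both EPSC lists, while the widest ESC peak, of 608 bp, lay 73.1 kb into the gene. An intronic region 4.04 kb from the start had a peak of 202 bp in ESCs and 487 bp in D-EPSCs, and the nearest L-EPSC peak was 2912 bp away. A region at 20.1 kb had peaks of 402 bp in ESCs and 391 bp in L-EPSCs, with the nearest D-EPSC peak 1190 bp away. In D-EPSCs alone a peak of 337 bp contained the internal start at base 128225595, 25.4 kb into the gene. Both EPSC lists alone had peaks at 18.5 kb, of 120 and 155 bp, and at 66.5 kb, of 119 and 259 bp.

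Cdx2 (chr5:148112381-148118846, minus strand), the homeobox factor of the trophectoderm, had 4 regions downstream of its start with a peak in all 3 lists, and the lists differed at the start itself. The window held 4 ESC peaks, 6 D-EPSC peaks and 6 L-EPSC peaks. A region of 927 bp at the start contained a D-EPSC peak of 667 bp, which covered the start base, and an L-EPSC peak of 653 bp, which began 111 bp into the gene. The nearest ESC peak lay 2132 bp from the start and 1369 bp from that region. That ESC peak was the widest of the ESC list in this window, at 779 bp in an intron 2.42 kb from the start, where D-EPSCs had 188 bp and L-EPSCs 468 bp. Past the end of the gene, at 7.67 kb from the start, ESCs had the narrowest peak and both EPSC lists their widest, with 362 bp in ESCs against 754 in D-EPSCs and 723 in L-EPSCs. The regions at 12.9 and 13.9 kb also had a peak in all 3 lists. Upstream, D-EPSCs alone had a peak of 296 bp at -16.4 kb and L-EPSCs alone one of 409 bp at -7.76 kb, and the nearest start to both was that of the neighbouring gene Prhoxnb.

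Gata3 (chr2:9778705-9811661, minus strand), a GATA factor of the trophectoderm, had 2 peaks in ESCs against 4 in D-EPSCs and 3 in L-EPSCs. Close to the start, ESCs had a peak of 341 bp and L-EPSCs one of 392 bp, while D-EPSCs had a pair of peaks of 454 and 128 bp. The gene start was 426 bp from the ESC peak, 49 bp from the D-EPSC peak and 417 bp from the L-EPSC peak. The start of 9230102O04Rik lies 65 bp from the middle of this region, so the peak cannot be given to Gata3 alone. An intronic region at 10.4 kb was close to equal in width, with 386 bp in ESCs against 428 in D-EPSCs and 382 in L-EPSCs. L-EPSCs alone had a peak of 305 bp at -14.1 kb, and D-EPSCs alone had one of 136 bp in an intron at 18.9 kb.

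Eomes (chr9:118387330-118395250, plus strand), a T-box factor needed in trophoblast stem cells, had the widest start peaks of the 9 genes in all 3 lists. They were 993 bp wide in ESCs, 1385 bp for D-EPSCs and 1052 bp for L-EPSCs, wider than 96.0%, 97.9% and 94.4% of the peaks of each list. Only the D-EPSC peak reached the 5′ end of the gene, and the ESC and L-EPSC peaks began 291 and 304 bp after it. The window held 3 ESC peaks, 7 D-EPSC peaks and 6 L-EPSC peaks. Downstream of the gene, a region at 11.4 kb had 245 bp in ESCs against 798 in D-EPSCs and 448 in L-EPSCs. Both EPSC lists alone had peaks of 354 and 485 bp at 10.3 kb and peaks of 140 and 818 bp at 18.7 kb. D-EPSCs alone had peaks at -9.75 and 8.81 kb, of 440 and 238 bp, and L-EPSCs alone had one of 174 bp at 20.0 kb. The last region of the window lies at the start of the neighbouring gene Golga4 and had a peak in all 3 lists.

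Elf5 (chr2:103251845-103291146, plus strand), an ETS factor that holds trophoblast fate, had 1 peak in ESCs against 3 in D-EPSCs and 4 in L-EPSCs, none near its 5′ end. The nearest peak to the 5′ end was 34130 bp away in ESCs, 13014 bp for D-EPSCs and 12910 bp for L-EPSCs. Both EPSC lists alone had a peak that contained an internal start, at base 103264985, with 185 bp in D-EPSCs beside 284 bp in L-EPSCs. The only ESC peak was 194 bp wide and lay 34.3 kb into the gene, where D-EPSCs had 242 bp and L-EPSCs 341 bp. That region counts as a start peak through a transcript annotated as processed, with no coding sequence. Narrow peaks of a single list were at 23.0 kb in D-EPSCs, of 119 bp, and at 28.3 and 45.0 kb in L-EPSCs, of 210 and 136 bp, the last inside an intron of Cat.

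Tfap2c (chr2:172375093-172384122, plus strand) encodes an AP-2 factor of trophoblast and of naive pluripotent cells, and it had 3 ESC, 4 D-EPSC and 5 L-EPSC peaks. At the 5′ end, D-EPSCs had a peak of 310 bp over the start base and L-EPSCs one of 148 bp that ended 23 bp before it, with the ESC peak closest to it 979 bp away. That ESC peak was 128 bp wide, the narrowest width in the ESC list, and lay in a region that contains 4 further starts of the gene. D-EPSCs had 716 bp and L-EPSCs 536 bp there. D-EPSCs alone had a peak of 734 bp at -1.98 kb, the widest D-EPSC peak of Tfap2c and wider than 81.5% of the D-EPSC list. L-EPSCs alone had a peak of 150 bp at -4.83 kb. A region at 18.9 kb, past the end of the gene, had nearly the same width in ESCs and L-EPSCs, at 591 and 590 bp, and the nearest D-EPSC peak was 8302 bp away. The region at 27.8 kb had the widest ESC and L-EPSC peaks of this window, with 632 bp in ESCs against 680 in D-EPSCs and 735 in L-EPSCs.

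Gata2 (chr6:88143885-88157024, plus strand), a GATA factor of trophoblast giant cells and of blood, had a start peak in each EPSC list, but at different starts. In L-EPSCs alone a peak of 380 bp began 58 bp after the 5′ end of the gene. In D-EPSCs alone a peak of 295 bp contained the internal start at base 88148658, 4.82 kb into the gene. A region at -4.05 kb had a peak in all 3 lists, with 332 bp in ESCs against 432 in D-EPSCs and 545 in L-EPSCs, the widest of Gata2 in each list. It was the only ESC peak of the window, against 3 in D-EPSCs and 2 in L-EPSCs. The remaining D-EPSC peak, of 147 bp at 33.0 kb, was 1192 bp from the start of 1700031F10Rik.

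Hand1 (chr11:57642207-57646320, minus strand), a helix-loop-helix factor of trophoblast giant cells, had the fewest peaks of the 9 genes in ESCs and D-EPSCs and tied with Gata2 and Ascl2 in L-EPSCs, with 0 in ESCs against 1 in D-EPSCs and 2 in L-EPSCs. Both EPSC lists had a peak in a region at 12.5 kb, past the end of the gene, of 238 bp in D-EPSCs beside 193 bp in L-EPSCs. L-EPSCs alone had a peak of 123 bp at 7.57 kb. The nearest peak to the gene start was 30689 bp away in ESCs, 12413 bp for D-EPSCs and 7506 bp for L-EPSCs. A missing peak says only that no peak was called in the list.

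Ascl2 (chr7:150152727-150155169, minus strand), a helix-loop-helix factor of the spongiotrophoblast precursors, had 1 ESC, 2 D-EPSC and 2 L-EPSC peaks. At the start, D-EPSCs had a peak of 235 bp that ended 17 bp before the start base and L-EPSCs one of 310 bp that covered it. The nearest ESC peak was 1303 bp from the start, just outside the 1 kb limit, and that of Cdx2 at 2132 bp was the next closest. Inside the gene a region of 1049 bp held an ESC peak of 269 bp, a D-EPSC peak of 847 bp and an L-EPSC peak of 531 bp. The ESC and L-EPSC peaks of this region do not touch each other and are joined by the D-EPSC peak. No other peak lay in the window, and the next region outside it, in L-EPSCs only, was 33575 bp from the gene.

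In both EPSC lists, peaks in regions of all 3 lists had larger median widths than peaks without an ESC counterpart. The EPSC peaks shared with ESCs alone were also wide, at 487 bp for 1 D-EPSC peak and a median of 490.5 bp for 2 L-EPSC peaks. Class medians over the whole lists were not computed, so whether this is general was not tested. The median width of the peaks in the windows was 394 bp in ESCs (95% interval 325 to 591), 310 bp in D-EPSCs (238 to 440) and 391 bp in L-EPSCs (282 to 531), against 369, 364 and 358 bp over the whole lists. In D-EPSCs the 20 peaks in regions of all 3 lists had a median of 439.5 bp, the 10 in regions of both EPSC lists only 210 bp and the 10 of D-EPSCs alone 266.5 bp. The L-EPSC medians were 531 bp for 19 peaks, 271.5 bp for 10 and 192 bp for 8. Among the peaks without an ESC counterpart, the widest were the L-EPSC peak of 818 bp downstream of Eomes, the D-EPSC peak of 734 bp upstream of Tfap2c and both start peaks of Cdx2. In the 19 regions of all 3 lists, the D-EPSC peak was wider than the ESC peak in 12 and the L-EPSC peak in 13. Over all 21752 such regions 72.1% had a wider D-EPSC peak and 70.2% a wider L-EPSC peak. The median ratio of width to ESCs was 1.25 in D-EPSCs and 1.15 in L-EPSCs, beside 1.26 and 1.22 over all such regions.

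**Figure D5:**
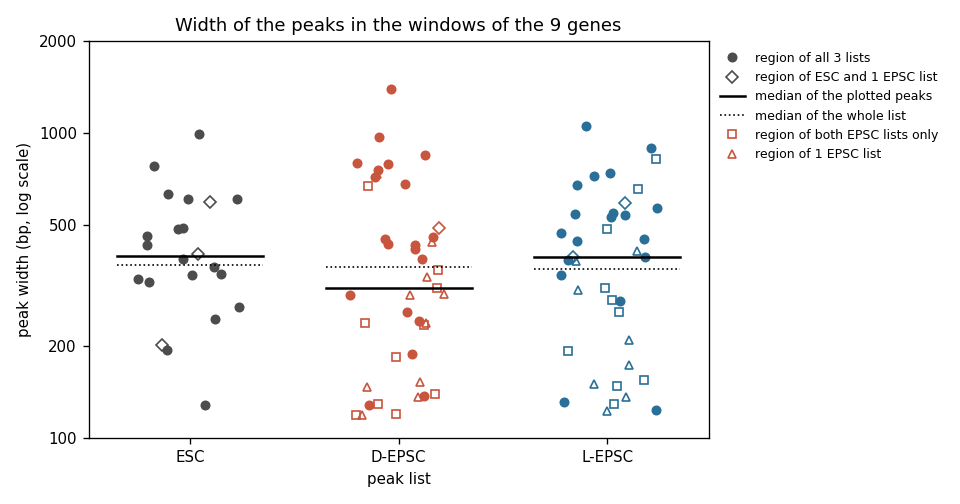
Width of each peak in the 9 windows in bp (vertical axis, log scale) by list (horizontal axis), with the marker showing the class of its region and sideways scatter only to separate points. Solid lines are medians of the plotted peaks and dotted lines medians of the whole list, and the open squares and triangles, the peaks without an ESC counterpart, have medians of 192 to 271.5 bp against 439.5 and 531 bp for the filled circles of the EPSC lists.

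Most of the 50 regions lay away from starts. The middle of 22 regions was intergenic, of 18 intronic, of 7 in an untranslated exon and of 3 in a coding exon, namely at Cdx2, Eomes and Ascl2. The middle of 13 regions, or 26.0% (15.9 to 39.6), lay within 1 kb of a start of any gene, against 32.6% of regions in coding windows. Of the 19 regions of all 3 lists 6 were of this kind, as were 4 of the 10 in both EPSC lists only, 2 of the 10 in D-EPSCs only and 1 of the 8 in L-EPSCs only. The median GC content of the regions was 56.0%, against 54.4% in coding windows, and the median ratio of observed to expected CpG was 0.447 against 0.319. The window limit kept in the Eomes region at the Golga4 start, 19835 bp from the gene, and a D-EPSC peak 19767 bp from Gata2, and it left out a D-EPSC peak of 552 bp that lay 20160 bp from Tead4.

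Consensus sequences of the member factors, and of the pluripotency factors Esrrb and Oct4, were searched in the central 300 bp of each region, on both strands and with no mismatch. The GATA consensus (GATAA or GATAG with A or T before it) was found in 15 of the 50 regions, or 30.0% (19.1 to 43.8), against 26.6% of all 65518 regions. The ETS consensus AGGAAG, of the family of Elf5, was found in 36.0% and in 36.0% of all regions. TEAD (GGAATG) was found in 16.0% against 16.4%, T-box (AGGTGT) in 14.0% against 16.3% and AP-2 (GCCNNNGGC) in 12.0% against 16.3%. CDX (CATAAA) was found in 14.0% (6.95 to 26.2) against 8.50%, which lies inside the interval. The E-box CAGCTG of Ascl factors was found in 26.0% against 20.6% and the E-box CATCTG of Hand factors in 12.0% against 19.6%. ESRRB (AAGGTCA) was found in 3 regions, with a share of 6.95% over all regions. The octamer ATTTGCAT was found in 0 of 50, which allows up to 7.13%, against 2.32%, and the match before the Cdx2 start printed above lies outside the central 300 bp of its region. A match is a string of letters and does not show that a factor was bound.

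The other genes of the pathway were counted in the same way from lists by role, to be read beside the shares of all coding genes with a start peak, 52.3%, 64.2% and 61.5%. In the Hippo pathway and the input to trophectoderm, 10 of 11 genes had a start peak in ESCs and all 11 had one in D-EPSCs and in L-EPSCs. The gene that lacked it in ESCs was Tead2, which had 4 window peaks in ESCs against 7 in D-EPSCs and 5 in L-EPSCs. Of 12 trophoblast stem cell genes 10 had a start peak in ESCs and 12 in each EPSC list. That list includes Sox2, counted above as a marker of pluripotent cells, and the pluripotency factor gene Esrrb. Both had a start peak in all 3 lists, so the ESC count does not stand for trophoblast genes alone. The BMP ligand gene Bmp4 and Tfap2a, the AP-2 paralog listed as Tcfap2a, had start peaks in both EPSC lists only. Tfap2a had 1 window peak in ESCs against 9 in D-EPSCs and 7 in L-EPSCs. Of 17 genes of differentiated trophoblast and placenta 7 had a start peak in ESCs against 10 in D-EPSCs and 8 in L-EPSCs. A start peak was missing from every list at 7 of them, against 7685 of all 22367 coding genes. Gcm1, a factor of the labyrinth, had a start peak in D-EPSCs only. Peg10, an imprinted gene, and the homeobox gene Dlx3 had one in both EPSC lists only, and Phlda2, another imprinted gene, had one in ESCs and D-EPSCs and not in L-EPSCs. In their windows 9 of these 17 genes had more D-EPSC than ESC peaks and 1 had fewer, while 4 had more L-EPSC than ESC peaks and 3 had fewer. Of all 22367 coding genes, 56.5% had more D-EPSC than ESC peaks and 1291 genes had fewer. For L-EPSCs 52.5% had more and 1354 genes had fewer. Krt7, a keratin gene named after its values were seen, had 1 ESC peak and none in either EPSC list. More D-EPSC than ESC peaks were found at 8 of the 11 Hippo and input genes and 9 of the 12 stem cell genes, with fewer at 1 gene of each list. More L-EPSC peaks were found at 10 and 10, with fewer at 0 and 0. These counts are to be read beside the same shares of 56.5% and 52.5% over all coding genes. Among coding genes with at least 2 regions the shares were 73.2% for D-EPSCs and 68.6% for L-EPSCs. In 5 of the 17 placental genes no list had any peak in the window, against 16.0% of all coding genes. These, named after their values were seen, were Tpbpa, Ctsq and the prolactin family genes Prl3d1, Prl2c2 and Prl3b1. All 5 lie on chromosome 13, with Prl3d1 near Prl3b1 and Tpbpa near Ctsq, so they are not independent.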

How the data were processed

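ATAC-seq was done on 6 libraries, 2 technical replicates for each of 3 states. The authors aligned paired reads to mm9 with Bowtie2 2.3.5, filtered them with SAMtools 1.10 to well mapped proper pairs, and ran MACS at default settings to call peaks. How replicates were combined, duplicate removal, the transposase shift and blacklist filtering are not given in the sources used here. Unremoved duplicates or unequal depth could change how many weak peaks a list holds. Each deposited list gives 4 columns, chromosome, start, end and a running name, with no score, so width was the only measure of a peak. The authors also counted reads over peaks for a differential analysis, which was not used here. Planned use of scores was replaced by width.

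Peaks on chromosomes 1 to 19 and X and Y were used. Genes came from GENCODE M1 and sequence from NCBIM37, the same assembly as mm9, and every peak end lay within its chromosomes. Peaks sharing at least 1 bp were merged into regions. Intervals are 95% Wilson intervals for shares and order-statistic intervals for medians, and they cover counting error only. The genes named were the 9 members and those other pathway genes whose start had a peak in some lists and not in others. Krt7 and the placental genes with no peak at all were named after their values were seen. Other genes were named as markers of pluripotent cells, to describe a gene list, as neighbours of a region or as background. The regions named in each window were the widest peak of each list and up to 5 regions not in all 3 lists, beside others added after values were seen. The members and lists were chosen with earlier results of these data known. Python 3.11.15 with numpy 2.4.6, pandas 2.3.3 and matplotlib 3.10.9 was used. Overlap, merging and motif steps were tested on simulated data, against bedtools 2.31.1 for the overlap and merging steps.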

Additional observations from a re-analysis of the deposited data

How the results depend on the processing

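No paired analysis was possible because each state has 1 list and no value per replicate, so no replicate could be left out either. Of 179 recomputed values, 147 stayed within the range set for them, 31 moved and 1 changed direction. When lists were cut to their widest 28965 peaks, the ratio of D-EPSC to ESC peaks turned to 0.955. The windows then held 21 D-EPSC peaks with a median of 487 bp, 17 of them shared, 2 members had more D-EPSC than ESC peaks, and regions numbered 2 in both EPSC lists only, 4 in D-EPSCs only, 2 in ESCs only and 5 in ESCs and L-EPSCs only. With the widest 50% of each list the peaks were 12 for ESCs, 18 for D-EPSCs and 22 for L-EPSCs. Of these 11, 15 and 17 were shared, the medians were 673.5 bp for D-EPSCs and 539.5 bp for L-EPSCs, 3 members had an ESC start peak, and regions numbered 7 in all 3 lists, 3 only in D-EPSCs, 5 only in L-EPSCs and 1 only in ESCs. A flank of 50 kb gave 64 D-EPSC peaks, covered bases of 14783 (ESC), 25568 (D-EPSC) and 24446 (L-EPSC), and regions of 18 in D-EPSCs only, 1 in ESCs only and 2 in ESCs and D-EPSCs only. A common minimum width of 128 bp gave 2 regions in ESCs and D-EPSCs only. Requiring the start base inside the peak, chosen after seeing the data, gave 3 members in ESCs and 5 in L-EPSCs. The lists hold no read counts, so peaks lost to depth cannot be told apart from closed sites.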
